A study of Oryza sativa with 6 samples.

Results

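The enzymes that take apart superoxide and hydrogen peroxide were examined in young rice leaves, through the probe sets of superoxide dismutase, catalase and ascorbate peroxidase genes. The 10 genes asked for were looked up by symbol or synonym in a gene table joined by gene ID to the array's probe annotation, and 9 of 10 were found: sodCp, SODCC.1, SODCC.2, SODA, CATA, CATB, APX1, APX2 and APX8. CATC had no match there and was not analysed here. The 9 genes had 20 of the array's 57381 probe sets, 6 for superoxide dismutases, 8 for catalases and 6 for ascorbate peroxidases. The genes were chosen by name, with the signals and fold changes of these same RNAi and control arrays already known. Their fold changes, and their adjusted p-values from the test over all probe sets, are therefore a description and not independent evidence.

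The RNAi plants carried a hairpin against OsSRT1, a sirtuin (an NAD-dependent deacetylase), in the indica variety Minghui63, and each of 3 arrays held RNA of a sample titled transgenic line LM1, LM2 or LM3. The hairpin came from 412 bp of the 3' untranslated end of the OsSRT1 transcript, where the related OsSRT2 differs. The controls were 3 samples of Minghui63 without the construct, called control 1, 2 and 3. All seedlings grew for 11 days in half-strength MS medium at 25 °C with 16 h of light and 8 h of dark, and leaves were taken before lesions showed on the RNAi plants. The submitters describe biological repeats, and no label says that a line is an independent transformation, so p-values cover only the spread among these 6 samples. The labels name no promoter for the hairpin. No probe set is named OsSRT1, so the knockdown itself was not checked.

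Superoxide, made mainly where electrons leak from photosynthesis or respiration, is turned by superoxide dismutases into hydrogen peroxide and oxygen. Plants have copper/zinc enzymes in the cytosol and the plastid and a manganese enzyme in the mitochondrion. The peroxide is then removed by catalases, which work in the peroxisome and need no reducing partner, and by ascorbate peroxidases, which spend ascorbate and exist in the cytosol, the plastid and other compartments. In leaves these enzymes act beside photosynthesis and photorespiration, and hydrogen peroxide is also a signal in plant cell death.

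Signals are array intensities multiplied to a common trimmed mean of 500 and carry no absolute unit, so a level is compared only between arrays for the same probe set. Fold changes are differences of log2(signal + 16), RNAi minus control, which understates the change of dim probe sets. The groups were compared at 5 green leaf markers, matched from 19 symbols, among them a Rubisco small subunit and a light-harvesting protein. Their summed signal was 134012 to 154419 in RNAi leaves and 143172 to 166826 in controls, and 0 of 5 passed the test. A comparison of the groups cannot by itself show that a sample is leaf. None of the tested markers of root (1 of 4 matched), dividing cells (3 of 6), seed (2 of 7) or pollen (0 of 3) passed either. The fluidics records place the RNAi arrays in one wash run and the controls in an earlier one on the same station, and wash run and genotype cannot be told apart. LM1 stood apart from the other RNAi arrays. Its log2 signal correlated at 0.9676 with LM2 and 0.9671 with LM3, which correlated at 0.9789 with each other. It lay at least 1 log2 unit below both at 3.58% of 28597 tested probe sets, against 0.734% for LM2 and 1.04% for LM3 each below the other RNAi arrays.

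No probe set of the 9 genes passed the test between RNAi and control leaves. The largest differences were in the plastid superoxide dismutase gene, which had higher signal in LM2 and LM3 than in any control, and in the cytosolic ascorbate peroxidase gene APX2, which had lower signal in LM1. All 20 probe sets were bright enough to be tested. Of these, 0 passed an adjusted p of 0.05 (limma, Benjamini-Hochberg over all tested probe sets), where 2.1% of all tested probe sets did. With SAM, the test that the submitters name, 0 of 20 passed as well, where 2.03% of all did. At an unadjusted p of 0.05 there were 3 of 20, those of sodCp, SODCC.2 and a dim probe set of APX2, beside 15.6% of all tested. The 20 log2 fold changes ran from -1.46 to 1.01 with a median of -0.02, against a median of 0.03 over all tested probe sets, and 14 of 20 were smaller than 0.25 in size. The 3 RNAi values lay wholly above the 3 control values at 2 probe sets and wholly below at 3, where 12.5% and 9.88% of all tested probe sets did so. On the signals as deposited, in which the median log2 fold change of all tested probe sets was -0.52, 8 of the 9 probe sets with a higher RNAi mean had a lower one, and sodCp alone stayed higher, at 0.37.

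**Figure D1:**
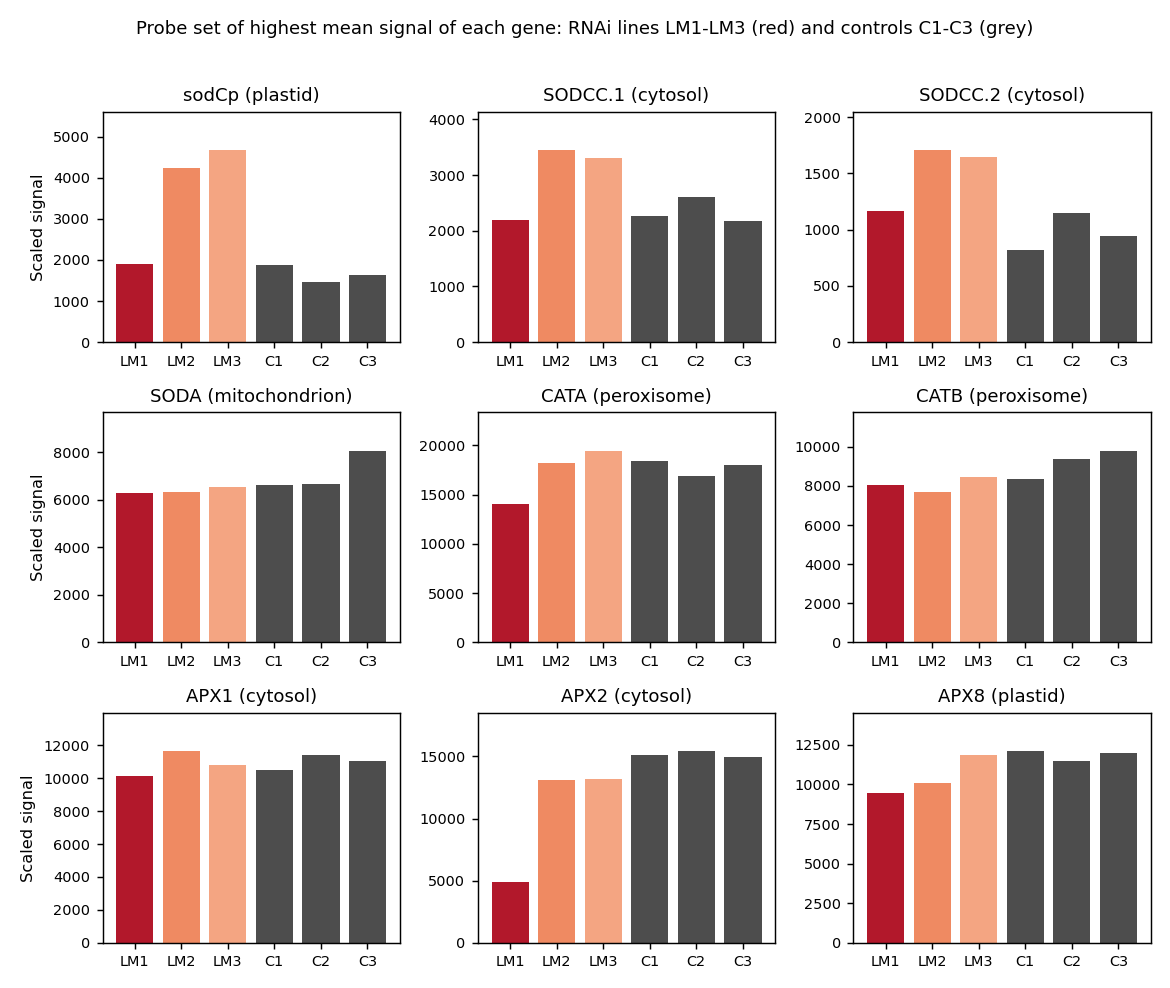
Bars give the scaled signal (vertical axis, from 0, no absolute unit) on each array for the probe set of highest mean signal of each of the 9 genes, RNAi lines LM1 to LM3 in red and controls C1 to C3 in grey; each bar is 1 array. sodCp stands at 4240 and 4671 in LM2 and LM3 and at 1902 in LM1, and APX2 stands at 4882 in LM1 and at 13068 or more on every other array.

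sodCp, which encodes the copper/zinc superoxide dismutase of the plastid, had the largest difference upward. Its signal was 1902 in LM1, 4240 in LM2 and 4671 in LM3, against 1886, 1474 and 1637 in controls 1, 2 and 3. LM2 and LM3 stood far above every control, while LM1 lay just above the highest control. The mean was 3604 ± 1490 in RNAi leaves and 1666 ± 208 in controls (SD, n = 3 each), a log2 fold change of 1.01 ± 0.30 (SE) with a 95% interval of 0.33 to 1.69. It did not pass over all probe sets (limma adjusted p = 0.144). Set against the control mean line by line, sodCp was 1.15-fold in LM1, 2.54-fold in LM2 and 2.80-fold in LM3. Without LM1 the log2 fold change was 1.42 and the gene passed (limma adjusted p = 0.00149, where 3.15% of all tested probe sets passed), and over all fits that left out 1 array the adjusted p reached 0.404.

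The genes of the cytosolic copper/zinc enzymes also had their lowest RNAi signal in LM1, and their fold changes were smaller. SODCC.2 had 1162 in LM1, 1706 in LM2 and 1646 in LM3, against 819, 1150 and 942 in controls 1, 2 and 3. Its groups did not overlap, but LM1 exceeded control 2 by a narrow margin. The log2 fold change was 0.62 ± 0.19, with an interval of 0.19 to 1.05 (limma adjusted p = 0.158). Without LM1 it was 0.79 with an adjusted p of 0.0386 by limma, and on the signals as deposited it was -0.02. SODCC.1 had 2191, 3444 and 3314 in LM1, LM2 and LM3, against 2257, 2604 and 2177 in controls 1, 2 and 3. Here LM1 was inside the control range and LM2 and LM3 were above it, and the log2 fold change was 0.32 ± 0.18 (limma adjusted p = 0.437, and 0.0534 without LM1), with -0.31 on the signals as deposited. Averaged over the 3 copper/zinc genes, the log2 deviation from the control mean was 0.12 in LM1, 0.91 in LM2 and 0.92 in LM3. The averaged controls spread around 0 with an SD of 0.07, because deviations of single genes partly cancelled. Taken singly, the control SD in log2 units was 0.18 for sodCp, 0.14 for SODCC.1 and 0.24 for SODCC.2.

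The manganese enzyme of the mitochondrion, SODA, gave a different picture. Its brightest probe set had 6288, 6333 and 6520 in LM1, LM2 and LM3, against 6628, 6659 and 8065 in controls 1, 2 and 3. All RNAi values were below all controls, by a margin that is small beside the spread of the controls. The log2 fold change was -0.15 ± 0.11 (limma adjusted p = 0.539), and the interval of -0.39 to 0.09 leaves out a rise of the size seen for sodCp. Both other probe sets of SODA were dim, from 34.8 to 120 in RNAi leaves and from 29.3 to 127 in controls, and their groups overlapped. The ending _s_at of the brightest one marks probes shared by more than 1 transcript.

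**Figure D2:**
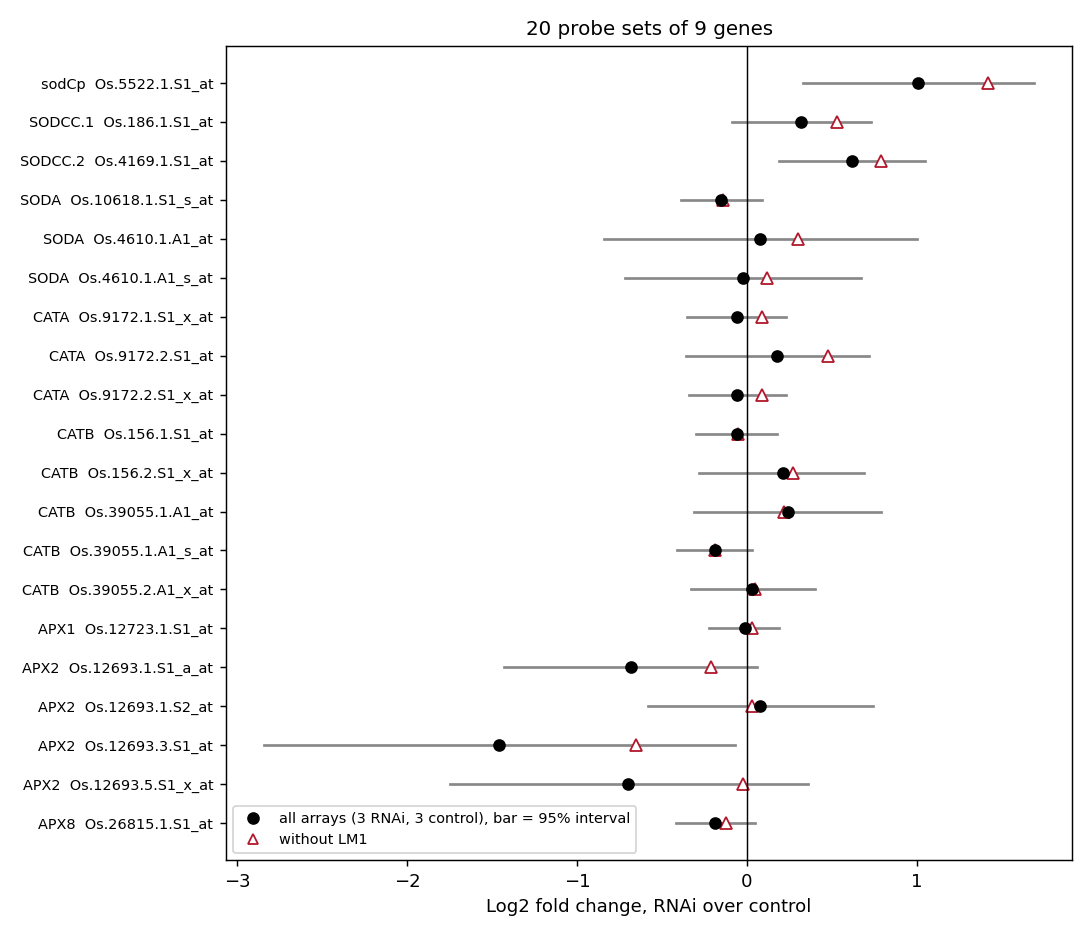
Each row is 1 of the 20 probe sets, with its log2 fold change, RNAi over control, from all 6 arrays (black point, grey bar for the 95% interval) and without LM1 (open triangle). The points of sodCp and SODCC.2 move right without LM1, to 1.42 and 0.79, and 3 of the 4 APX2 points move towards 0, to -0.21, -0.65 and -0.02.

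No catalase probe set passed, and the 8 log2 fold changes lay between -0.19 and 0.24. CATA, a peroxisomal catalase, was read by 3 probe sets. The brightest, with the ending _x_at, had 14030, 18261 and 19465 in LM1, LM2 and LM3, against 18375, 16870 and 18047 in controls 1, 2 and 3. LM1 was the lowest of all arrays and LM3 the highest, so the groups overlapped. The log2 fold change was -0.06 ± 0.12, with a 95% interval of -0.34 to 0.23. Another probe set with the ending _x_at also gave -0.06, and this ending marks probes that can cross-hybridise. The remaining CATA probe set, which carries no such mark, had 4595, 9126 and 8080 in LM1, LM2 and LM3 and 7417, 5393 and 5831 in controls 1, 2 and 3. Again LM1 was lowest and LM2 and LM3 were above every control, and the log2 fold change of 0.18 ± 0.24 was 0.48 without LM1 (limma adjusted p = 0.763, and 0.125 without LM1).

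CATB, another peroxisomal catalase, had an SD of 0.07 log2 units between the RNAi lines when averaged over its probe sets, where CATA had 0.34. Its brightest probe set had 8045, 7666 and 8428 in LM1, LM2 and LM3, against 8361, 9371 and 9796 in controls 1, 2 and 3. LM3 exceeded control 1 and the other RNAi values were below all controls. The log2 fold change was -0.19 ± 0.10 (limma adjusted p = 0.403). The next brightest had 7868, 8188 and 7920 in LM1, LM2 and LM3 and 7263 to 8945 in controls, a log2 fold change of -0.06 ± 0.11. The RNAi values lay inside the control range. The other 3 CATB probe sets had log2 fold changes of 0.03 to 0.24, none of them passing.

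Among ascorbate peroxidases the cytosolic genes APX1 and APX2 parted in LM1. APX1 had 10145, 11644 and 10806 in LM1, LM2 and LM3, against 10475, 11400 and 11020 in controls 1, 2 and 3. The ranges overlapped and the log2 fold change was -0.01 ± 0.09, with an interval of -0.22 to 0.19 (limma adjusted p = 0.959). APX2 had 4882, 13068 and 13198 on its brightest probe set in LM1, LM2 and LM3, against 15098, 15428 and 14983 in controls 1, 2 and 3. LM2 and LM3 lay a little below the narrow control range, and LM1 stood at 0.323 of the control mean. The group means were 10383 ± 4764 in RNAi leaves and 15170 ± 231 in controls (SD, n = 3 each), a log2 fold change of -0.68 ± 0.33 (limma adjusted p = 0.362). Without LM1 the log2 fold change was -0.21 with an adjusted p of 0.211 by limma.

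Further APX2 probe sets gave the same placing of LM1. The next brightest, with the ending _x_at, had 2731, 11699 and 10899 in LM1, LM2 and LM3, against 11015, 10835 and 12528 in controls 1, 2 and 3. LM1 was at 0.240 of the control mean, with LM2 and LM3 inside the control range. A dim probe set, the one of largest fold change, had 6.62, 99.5 and 113 in LM1, LM2 and LM3, against 236, 184 and 123 in controls 1, 2 and 3. Every RNAi value was below every control there, LM1 near 0, and the log2 fold change was -1.46 ± 0.61, and -0.65 without LM1 (limma adjusted p = 0.294, and 0.299 without LM1). The remaining APX2 probe set was dim throughout, from 58.5 to 110 in RNAi leaves and from 63.8 to 92.7 in controls, and did not place LM1 apart. Probe sets of 1 gene read the same RNA and are not replicates.

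**Figure D3:**
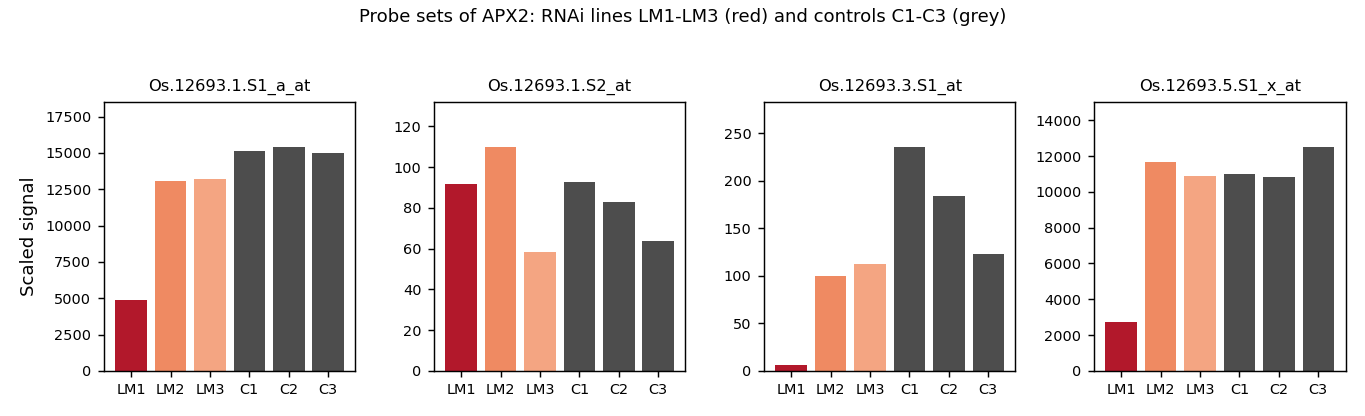
Bars give the scaled signal (vertical axis, from 0, a separate scale for each panel) of the 4 APX2 probe sets on each array, RNAi lines in red and controls in grey. LM1 is the lowest array in 3 panels, at 4882, 6.62 and 2731, and lies among the others in the panel where no array exceeds 110.

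APX8, the ascorbate peroxidase bound to the thylakoid membrane of the plastid, had 9442, 10077 and 11884 in LM1, LM2 and LM3, against 12107, 11479 and 11987 in controls 1, 2 and 3. LM1 and LM2 were below all controls and LM3 was inside their range. The log2 fold change was -0.19 ± 0.10 with an interval of -0.42 to 0.05 (limma adjusted p = 0.438).

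LM1 had the lowest signal of the RNAi arrays at 16 of the 20 probe sets, where it did so at 42.7% of all tested probe sets. The 20 belong to 9 genes, so they are not separate cases. Some placings were near ties, such as 6288 in LM1 and 6333 in LM2 at the brightest SODA probe set. LM1 lay at least 1 log2 unit below both LM2 and LM3 at 4 of 20, against 3.58% of all tested. These were 1 probe set of sodCp and 3 of the single gene APX2. LM1 lay that far above LM2 and LM3 at 0 of 20, where 0.755% of all tested probe sets did. The threshold of 1 log2 unit was chosen after these values were seen; at 0.5 the count below was 6 of 20, where 12.3% of all tested probe sets lay so. The summed signals of every marker type were also lowest in LM1. The green leaf sum was 134012 in LM1, 142464 in LM2 and 154419 in LM3, against 143172 to 166826 in controls. There CAB2R, PETE and GLO1 were lowest of all arrays in LM1, while RBCS and RCA were not. The pollen sum, with no tested marker, was 23.8 in LM1, 72.7 in LM2 and 77 in LM3, against 24.9 to 116 in controls. The sums of dividing cell, seed and root markers each followed mainly 1 gene. The dividing cell sum was 505 in LM1, 752 in LM2 and 805 in LM3, against 758 to 798 in controls, and followed PCNA, with 330, 604 and 644 in LM1, LM2 and LM3, while the other tested markers, CYCB1;1 and CDKB2;1, were not lowest in LM1. The seed sum was 4088 in LM1, 7327 in LM2 and 7269 in LM3, against 6205 to 6349 in controls, and followed GLB1, with 2568, 6006 and 5863 in LM1, LM2 and LM3, while GLUA2 was highest in LM1 of the RNAi arrays, at 1429. The root sum was 857 in LM1, 1269 in LM2 and 1444 in LM3, against 1618 to 1846 in controls, nearly all of it LSI1, with 842 in LM1. The ratio of 3' to 5' signal of the cyclophilin transcript, a sign of RNA integrity, was 2.49 in LM1, 1.57 and 1.93 in LM2 and LM3 and 1.65 to 1.92 in controls, while those of gapdh and actin did not single out LM1. Their part in the values of sodCp and APX2 was not tested. In whole leaves, fewer cells of a type and less RNA per cell cannot be told apart.

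By compartment, each gene was expressed as its log2 deviation from the control mean, averaged over its probe sets and then over the genes of the compartment. The cytosol, with SODCC.1, SODCC.2, APX1 and APX2, had -0.40 in LM1, 0.33 in LM2 and 0.24 in LM3. The plastid, with sodCp and APX8, had -0.07 in LM1, 0.56 in LM2 and 0.74 in LM3. LM1 was the low line in both, as it was in the mitochondrion and the peroxisome. LM2 and LM3 were above all 3 controls in both, and in the peroxisome as well. The peroxisome placing was lost with only the brightest probe set of each gene. LM2 then had -0.11 and LM3 0.01, against -0.04, -0.02 and 0.06 in controls 1, 2 and 3. In the plastid the placing of LM2 and LM3 came from sodCp, since APX8 had -0.23 in LM2 and 0.00 in LM3. The controls ran from -0.07 to 0.12 in the cytosol and from -0.11 to 0.11 in the plastid.

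The mitochondrion, represented by SODA alone, had -0.28 in LM1, -0.12 in LM2 and 0.30 in LM3, within or near a control range of -0.19 to 0.31. The peroxisome, with both catalases, had -0.18 in LM1, 0.17 in LM2 and 0.11 in LM3, and the controls ran from -0.01 to 0.01. That control range is narrow because the catalases deviated in opposite directions. In controls 1, 2 and 3 CATA had 0.12, -0.12 and 0.00, and CATB had -0.14, 0.13 and 0.01. The group means, with SD over 3 RNAi arrays, were 0.06 ± 0.40 in the cytosol, 0.41 ± 0.42 in the plastid, -0.03 ± 0.30 in the mitochondrion and 0.03 ± 0.19 in the peroxisome. The spread between lines was as large as the mean or larger in all 4 compartments, and no test was made of these averages. Without LM1 the means were 0.29 in the cytosol, 0.65 in the plastid, 0.09 in the mitochondrion and 0.14 in the peroxisome. With only the brightest probe set of each gene, the mitochondrion had -0.15 and the peroxisome -0.12, where the averages over probe sets were -0.03 and 0.03. On the signals as deposited, where control 3 is on a larger scale, all 4 means were below 0, from -0.59 in the peroxisome to -0.23 in the plastid.

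**Figure D4:**
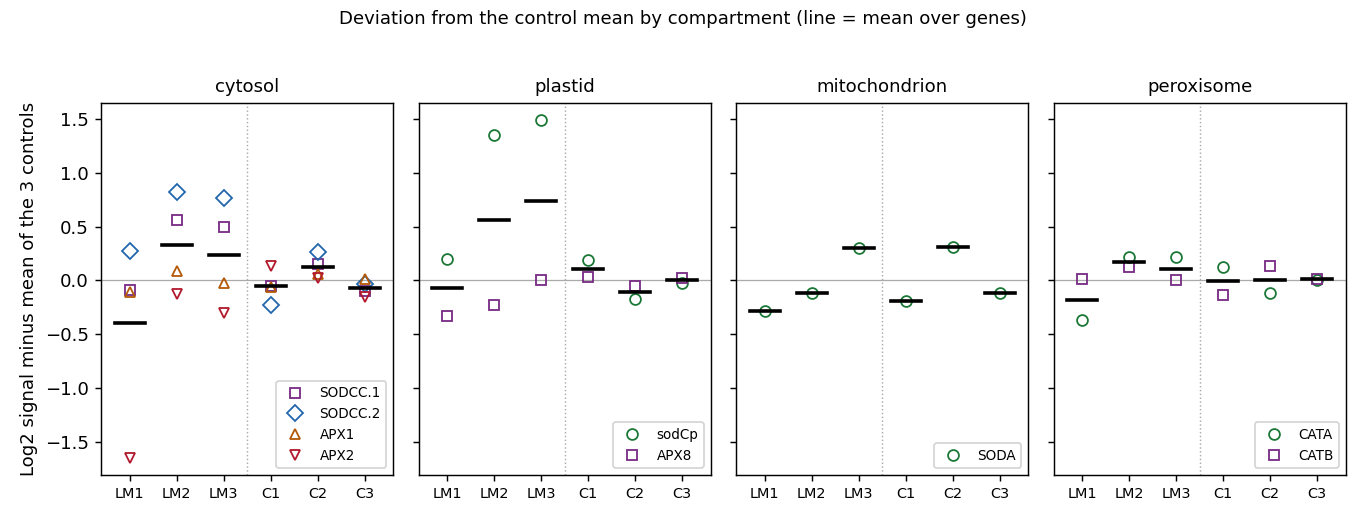
Points give each gene's log2 signal minus the mean of the 3 controls (vertical axis) on each array, averaged over the gene's probe sets, with 1 panel for each compartment, and black lines give the mean over its genes. In the plastid panel sodCp lies above APX8 in LM2 and LM3, at 1.35 and 1.49, and in the cytosol panel APX2 lies at -1.65 in LM1.

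Within compartments, 3 pairs of genes were set against each other, chosen after their values were seen and with no test. In the plastid, sodCp stood above APX8 by 0.52 log2 units of deviation in LM1, 1.58 in LM2 and 1.48 in LM3, where the controls ran from -0.12 to 0.16. In the cytosol, SODCC.2 stood above APX2 by 1.92 in LM1, 0.94 in LM2 and 1.06 in LM3, where the controls ran from -0.36 to 0.24. Within the cytosolic ascorbate peroxidases, APX1 stood above APX2 by 1.54 in LM1 and by 0.21 and 0.28 in LM2 and LM3. There the controls ran from -0.20 to 0.16, close to the LM2 value. Each of these differences lay above the range of the controls in all 3 RNAi lines, LM1 included. As the pairs were chosen with these values known, that separation describes the single genes again and adds no evidence.

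The genes with the most similar pattern over the 6 arrays were sought among 2665 tested probe sets of named genes, by Pearson's r of log2 signal, for 1 probe set of each family, that of the largest fold change. Those most like sodCp were BIMK2, a mitogen-activated protein kinase (r = 0.988), PDC, a pyruvate decarboxylase (r = 0.978), and CESA4, a cellulose synthase of secondary walls (r = 0.977). For CATB, on a dim probe set with 171 to 184 in RNAi leaves and 105 to 186 in controls, they were the glutaredoxin gene GRXS10 (r = 0.981), the tocopherol synthesis gene HPT1 (r = 0.978) and OsPUB57 (r = 0.976). All of these were lowest in control 3, with CATB at 105, GRXS10 at 677, HPT1 at 166 and OsPUB57 at 51.5, so 1 array weighs heavily here. For APX2, on the dim probe set of largest fold change, the most similar were the arginine methyltransferase gene PRMT10 (r = 0.999), the light-harvesting gene CAB2R (r = 0.990) and the small heat shock gene hsp17.9 (r = 0.989). That APX2 probe set had 6.62 in LM1 and 99.5 to 236 on the other arrays, so here LM1 alone weighs heavily. PRMT10 was lowest in LM1, at 327. hsp17.9 had 554, 2406 and 2946 in LM1, LM2 and LM3, against 4062, 4497 and 3010 in controls 1, 2 and 3. CAB2R was likewise lowest in LM1, with 18862, beside 29290 and 33008 in LM2 and LM3 and 30703 to 36857 in controls. CESA4 had 280, 606 and 700 in LM1, LM2 and LM3, against 193, 142 and 145 in controls 1, 2 and 3, a log2 fold change of 1.54 (limma adjusted p = 0.0491). That call was lost in most alternatives, with an adjusted p of 0.0884 with no filter, 0.125 without a trend, 0.0551 with 1 added in place of 16 and up to 0.203 when 1 array was left out. These coefficients describe 6 arrays in 2 groups and carry no test.

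Other genes of superoxide and peroxide metabolism were taken from 4 lists of 144 symbols, some of them synonyms. These matched 47 genes, of which 45 were tested, each by its probe set of highest mean signal. No other superoxide dismutase gene and no glutathione peroxidase gene was among them, so the lists do not cover the whole metabolism. Of the 45 tested genes 0 rose, 1 fell and 44 did not pass, where 1.09% of all tested probe sets rose and 1.01% fell. Metal supply held the gene that fell. Of 9 tested genes for copper and manganese handling 0 rose and 1 fell, with a median log2 fold change of 0.26, against 0.03 over all tested probe sets. COPT2, a copper uptake transporter, had 55.3, 74.6 and 98.9 in LM1, LM2 and LM3, against 483, 337 and 484 in controls 1, 2 and 3. No RNAi line came near a control, and the log2 fold change was -2.30 ± 0.25 (limma adjusted p = 0.00208), a call kept in each fit that left out 1 array. COPT1, another copper transporter, had 12162, 13682 and 16880 in LM1, LM2 and LM3, against 21030, 20743 and 19912 in controls 1, 2 and 3. Its groups did not overlap, with a log2 fold change of -0.54 ± 0.12 (limma adjusted p = 0.0607). COPT7 had a log2 fold change of -0.41 (limma adjusted p = 0.269), and SPL9, an SBP-box transcription factor, had -0.43 (limma adjusted p = 0.125). The other 5 of the 9 had a higher mean in RNAi leaves, and none of them passed. Besides CCS these were HMA5 (0.66), NRAMP3 (0.47), CCS1 (0.31) and HMA4 (0.27). CCS, whose symbol is that of the copper chaperone of superoxide dismutase and which was added after its values were seen, had 542, 684 and 830 in LM1, LM2 and LM3, against 599, 557 and 534 in controls 1, 2 and 3, with a log2 fold change of 0.26 ± 0.18. Its LM1 value lay within the controls and LM2 and LM3 above them.

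In the ascorbate-glutathione cycle, which regenerates the ascorbate that the peroxidases spend, 0 of 9 tested genes passed and the median log2 fold change was 0.24. APX7, the ascorbate peroxidase of the plastid stroma, had 5836, 3515 and 4713 in LM1, LM2 and LM3, against 3267, 3326 and 3047 in controls 1, 2 and 3. Every RNAi value was above every control and LM1 was the highest, with a log2 fold change of 0.51 ± 0.17 (limma adjusted p = 0.195). GME1, an epimerase of ascorbate synthesis, had 15849, 10527 and 10642 in LM1, LM2 and LM3, against 9402, 9211 and 9329 in controls 1, 2 and 3. LM1 again led, and the log2 fold change was 0.38 ± 0.15 (limma adjusted p = 0.277). GME2 had 0.26 and APX5 0.34. LM1, the line with the lowest APX2, thus had the highest signals of APX7 and GME1, which did not pass as group differences. It was also the highest of all arrays for APX4, MDAR5 and GME2, at 10313, 5408 and 4216. APX5 and APX6 went the other way, with their lowest RNAi signal in LM1, at 110 and 992. A relation to APX2 was not tested.

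Of 13 tested peroxiredoxin, thioredoxin and thioredoxin reductase genes 0 passed, with a median of -0.17. PRXIIF, the mitochondrial peroxiredoxin, had 858, 915 and 840 in LM1, LM2 and LM3, against 620, 476 and 657 in controls 1, 2 and 3, a log2 fold change of 0.58 ± 0.16 (limma adjusted p = 0.126). The lines were close to each other and above all controls, as at 12.5% of all tested probe sets. The plastid thioredoxin gene TRXF had a log2 fold change of -0.31 (limma adjusted p = 0.142). CDSP32, a thioredoxin-like plastid protein, had -0.19 (limma adjusted p = 0.309), and the thioredoxin reductase gene NTRA had -0.36 (limma adjusted p = 0.263). These 3 of 13 had all RNAi values below all controls, where 9.88% of all tested probe sets did. PRXIIE-1, a plastid peroxiredoxin gene added after its values were seen, had 363 in LM1 and 1127 and 1114 in LM2 and LM3, against 974, 937 and 1072 in controls 1, 2 and 3. It was the 1 gene of the 45 with LM1 at least 1 log2 unit below both other lines, where 3.58% of all tested probe sets lay so.

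Of 14 tested genes for peroxide sources, peroxisome proliferation, alternative oxidase and cell death signalling 0 passed, with a median of -0.05. MPK3, a stress-activated kinase, had a log2 fold change of -0.41 ± 0.16 (limma adjusted p = 0.259). AOX1A, the alternative oxidase of the mitochondrion, had 971, 1644 and 951 in LM1, LM2 and LM3, against 891, 816 and 951 in controls 1, 2 and 3, so LM2 alone stood out. GLO1, a glycolate oxidase, an enzyme that makes peroxide in photorespiration, had a log2 fold change of -0.12 ± 0.09, and LOL2, a zinc finger gene related to LSD1, had 0.25 ± 0.16, and neither passed (limma adjusted p = 0.589 for GLO1 and 0.502 for LOL2).

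**Figure D5:**
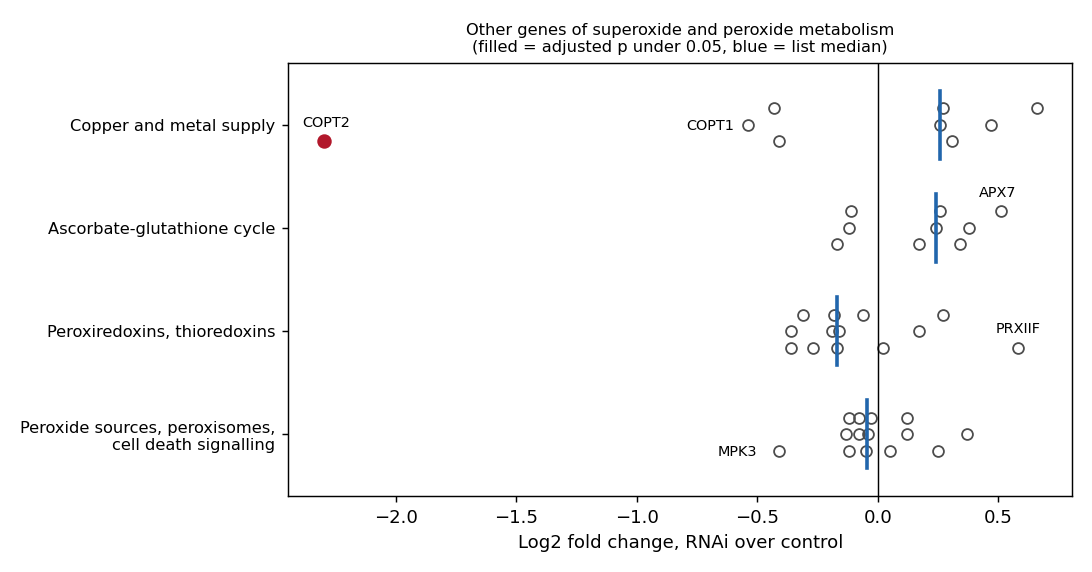
Each point is 1 of 45 tested genes in 4 lists (rows), placed by its log2 fold change, RNAi over control (horizontal axis). A gene is read by its probe set of highest mean signal only. Filled points passed an adjusted p of 0.05, and blue lines are list medians. COPT2 at -2.30 is the single filled point, and the other genes lie between -0.54 and 0.66.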

How the data were processed

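Total RNA of young leaves, 3 OsSRT1 RNAi and 3 control samples, was hybridised to the Affymetrix rice array, 1 sample per array. The deposited file gives 1 linear intensity per probe set and array. Per the submitters' processing notes GCOS 1.2 was used; how it summarised and scaled the probes is not stated there. Detection calls were not analysed here. The deposited trimmed mean was 500.1 in control 3 and 99.86 to 117.8 on the other arrays.

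Each array was multiplied to a 2%-trimmed mean of 500, and values were analysed as log2(signal + 16). After 123 control and 64 reporter probe sets and the dimmer 50% were left out, 28597 probe sets were tested with limma 3.58.1 in R 4.3.3 (moderated with a mean-variance trend, two-sided; Benjamini-Hochberg adjustment), checked on simulated arrays. SAM, named in the submitters' text, was written here with 20 permutations. Genes were named through the platform annotation and a RefSeq table (ASM3414082v1). Probe set endings _x, _s and _a mark probes shared with other transcripts or variants. The members and lists were chosen with earlier results of these data known. Named were all member probe sets, up to 4 genes per list of smallest adjusted p, and the 3 most similar genes per family. PRXIIE-1, APX4, APX6, MDAR5 and the metal supply genes with a higher RNAi mean were named in addition. The number of arrays limits the precision.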

Additional observations from a re-analysis of the deposited data

How the results depend on the processing

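The count of probe sets passed over the whole array, 601, was 37 on the signals as deposited, 394 with no filter, 303 with eBayes without a trend and 233 to 902 when 1 array was left out. The count among the 20 probe sets examined was 0 with every scaling, pseudocount, filter and test tried and with 1 probe set per gene, and 0 to 2 when 1 array was left out, the 2 being sodCp and SODCC.2 without LM1. With the replicate number as a block, 424 probe sets passed over the whole array, and sodCp had an adjusted p of 0.183 and SODCC.2 of 0.107; samples of the same number did not deviate together (r = -0.0452, 0.00838 and 0.00207), so the numbers were not taken as pairs. In the metal supply list the count of 1 was 0 on the signals as deposited and 1 to 2 when 1 array was left out, COPT1 passing without LM3.

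On the signals as deposited, where control 3 is on a larger scale, the compartment means were -0.52 for the cytosol, -0.23 for the plastid, -0.51 for the mitochondrion and -0.59 for the peroxisome. When 1 array was left out they were -0.08 to 0.29 for the cytosol, 0.25 to 0.65 for the plastid, -0.20 to 0.12 for the mitochondrion and -0.03 to 0.14 for the peroxisome. On the same signals 8 of the 20 probe sets examined turned from higher to lower in RNAi leaves, among them SODCC.1 (-0.31) and SODCC.2 (-0.02), as did those of AOX1A (-0.26), APX5 (-0.27), APX7 (-0.12), BIMK2 (-0.07), GME1 (-0.26), GME2 (-0.37), GRXS10 (-0.47), LOL2 (-0.36), OsPUB57 (-0.04), PDC (-0.19) and PRXIIF (-0.07). With quantile normalization 5 of the 20, all under 0.1 in size, and GLO1 (0.02) changed sign. CESA4, with an adjusted p of 0.0491 by limma, passed with quantile normalization, with 64 added in place of 16 and without LM1, and did not pass in the other alternatives tried.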
